A study of Danio rerio with 22 samples.

Results

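Germ cells of W-hybrid and Z-hybrid zebrafish larvae were compared across all genes at 10 days post-fertilization (dpf), in 6 of the 22 libraries of the series. The libraries were chosen by their labels alone, 3 from W-hybrid larvae and 3 from Z-hybrid larvae. W-hybrid larvae came from WW mothers of the wild Nadia strain crossed to ziwi:GFP fish of the Tüpfel long-fin (TL) strain. Z-hybrid larvae came from ZZ Nadia fathers crossed to ziwi:GFP females of the same laboratory strain. The ziwi:GFP transgene, which the larvae of both crosses carried, labels germ cells and was used to sort them. Each library was made from a pool of gonads of many larvae that had reached a set body length, so a replicate is a pool and not an animal. The W locus, the strain of the mother and the mitochondrial genome differed together between the crosses, and their parts in any difference cannot be told apart.

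Zebrafish of the Nadia strain determine sex with a W chromosome, whereas domesticated strains such as TL have lost it and show no single sex locus. Larvae of either sex first form an immature gonad in which germ cells resume mitosis, and the number of germ cells bears on the sex that follows. Cells that enter the oocyte path then start meiosis, while piRNA pathway proteins of the Piwi and Tudor families protect the germ line from transposons.

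The libraries were made with the full-length Smart-seq method. They held between 16134275 and 18321692 expected counts, and between 19655 and 20077 genes had at least 10 counts. The sorted cells had the defining transcripts of germ cells: the 9 matched germ cell markers summed to 3070 to 4657 TPM (transcript levels scaled to length and to the same total in every library) in W-hybrid libraries and to 4501 to 5713 TPM in Z-hybrid libraries, against 0.92 and 1.42 TPM in 2 libraries of trunk cells. Markers of gonadal somatic cells stayed low, at 4.47 to 10.2 TPM in W-hybrid libraries and 5.69 to 9.83 TPM in Z-hybrid libraries for 7 matched genes, and the follicle-stimulating hormone receptor gene fshr was at 0 to 0.14 TPM in W-hybrid libraries and at 0 TPM in every Z-hybrid library. gsdf, another of these genes, was at 0.6 to 7.57 TPM in W-hybrid and 3.17 to 4.03 TPM in Z-hybrid libraries. In trunk cells gsdf was at 0.42 and 0.18 TPM. Epidermal keratins and their partners summed to 10.5 to 17.8 TPM in W-hybrid libraries and 11.7 to 13.7 TPM in Z-hybrid libraries, against 20036 and 57509 TPM in trunk cells. Blood and fibroblast markers also lay far below trunk cells, but gut and pancreas markers lay above them. The gut and pancreas sums were 18.84 to 20.13 TPM in W-hybrid and 22.54 to 26.78 TPM in Z-hybrid libraries. Trunk cells had 2.27 and 0.82 TPM. Muscle markers summed to 87.07 to 100.99 TPM in W-hybrid and 50.03 to 80.77 TPM in Z-hybrid libraries. Trunk cells had 3656.9 and 52.83 TPM of these. The first principal component, with 45.8% of the variance, separated the hybrids, and W-hybrid replicate 3 lay closest to the Z-hybrid libraries (−18.7, against −43.7 and −62.8 for the other W-hybrid libraries and 31.4 to 52.3 for the Z-hybrid libraries).

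Of 20080 genes tested, 615 (3.06%) rose and 818 (4.07%) fell in W-hybrid germ cells, together 7.14%. A gene was called when its adjusted p in edgeR was under 0.05, its fold change was at least 1.5 and its mean TPM in the higher hybrid was above 5. Most differences were small: 153 of the genes that rose and 250 of those that fell changed at least 2-fold, and 39 and 23 changed at least 4-fold. The sides differed in level. Genes that rose had a median of 50.1 TPM in W-hybrid and 32.2 TPM in Z-hybrid germ cells, whereas genes that fell had a median of 6.96 TPM in W-hybrid and 14.6 TPM in Z-hybrid germ cells. In TPM, the 3 W-hybrid libraries lay wholly on 1 side of the 3 Z-hybrid libraries for 31.9% of tested genes. They lay below them (4543 genes) more often than above them (1863 genes). These positions, and the sums of TPM below, carry no scaling between libraries beyond a fixed total. Fold changes were fitted to counts scaled between libraries, and their median over all genes was −0.04 on the log2 scale. Scaled by library size alone, 332 genes rose and 1032 fell, so the share of higher genes among the calls was 24.3% in place of 42.9%.

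The direction of the difference followed transcript length. The 615 genes that rose had a median transcript of 1199 bases, the 818 genes that fell had one of 2786 bases, and all tested genes had one of 2010 bases. Among the shortest of 10 length classes of equal size 153 genes rose and 31 fell, whereas in the ninth 10 rose and 178 fell. The median log2 fold change was 0.23 in the shortest class and −0.29 in the ninth. Across the 11040 genes with a mean above 5 TPM, Spearman's rho of the log2 fold change with length was −0.43 at 10 dpf and 0.05 between the same hybrids at 12 dpf, given as a description since genes share libraries. W-hybrid replicates 1 and 2 were tilted to short transcripts (rho −0.35 and −0.49 of their deviation from the mean of the 6 libraries), replicate 3 was not (−0.01), and the Z-hybrid libraries were tilted to long ones (0.44, 0.25 and 0.28). The W-hybrid libraries had the same order on the first principal component, and Z-hybrid replicate 1 was at the far end of both. Hybrid and length tilt cannot be told apart on that component. At 12 dpf the tilt of the 4 W-hybrid libraries (−0.26 to 0.11) overlapped that of the 4 Z-hybrid libraries (−0.43 to 0.17). When each library's trend on length was taken out as an offset, 313 genes rose and 619 fell, of which 202 and 467 were calls of the fit without it. The part of length in the results was not tested otherwise, and for the main lists the calls with this offset are given beside those without it. List counts with the offset stand against 313 and 619 of 20080 genes, not against the 3.06% and 4.07% of the fit without it.

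**Figure D1:**
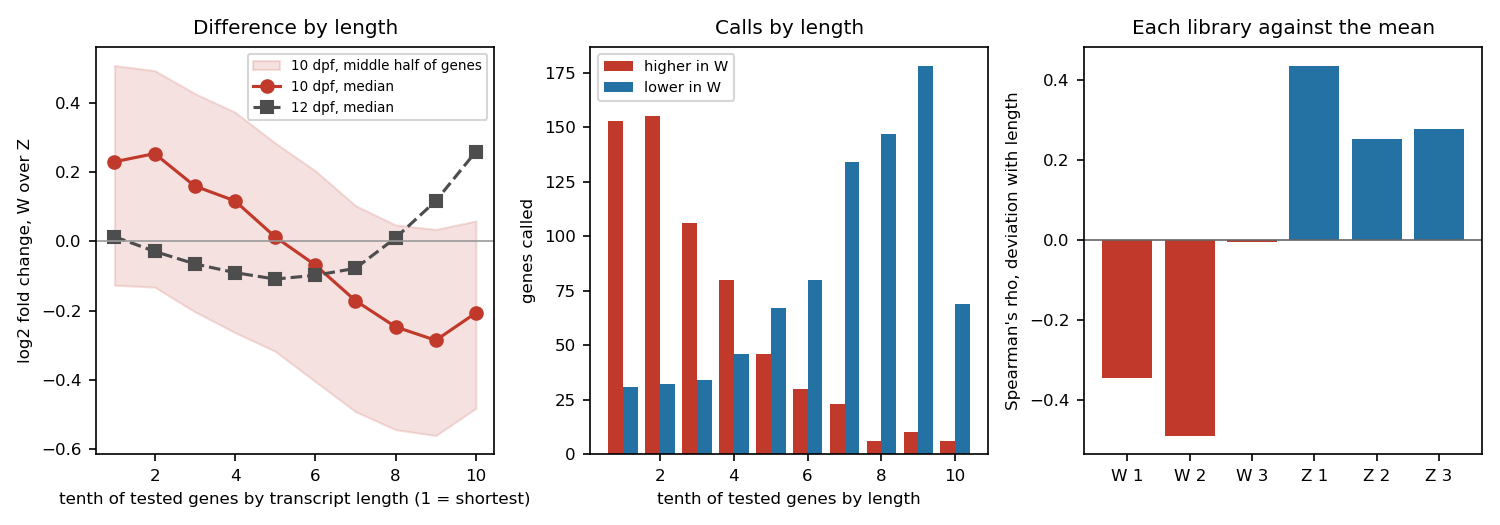
Log2 fold change by class of transcript length, 10 classes from short to long (left, lines the medians at 10 and 12 dpf, band the interquartile range of genes at 10 dpf), genes called per class (middle) and, for each library, Spearman's rho of its deviation from the 6-library mean with length (right). The 10 dpf median runs from 0.23 in the shortest class to −0.29 in the ninth, calls turn from 153 higher and 31 lower to 10 higher and 178 lower, and W-hybrid replicate 3 is near 0.

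The largest increases were in genes of which few have an assigned function. si:dkey-65l23.1 (ENSDARG00000094538) had 95.0, 83.5 and 64.2 TPM in the W-hybrid libraries, against 2.99, 5.40 and 5.11 TPM in the Z-hybrid libraries. Its log2 fold change was 4.33 ± 0.26 (SE, adjusted p = 5.47e-08), and it was at 0.54 and 0.84 TPM in trunk cells. sc:d217 (ENSDARG00000079645) had the largest log2 fold change of the genes that rose, 4.60 ± 0.35 (SE, adjusted p = 8.21e-07), with 5.35, 5.58 and 4.77 TPM in the W-hybrid, against 0.33, 0.21 and 0.20 TPM in the Z-hybrid. The genes of largest fold named here and below were picked among genes whose groups did not overlap in TPM. Their separation was thus fixed by the choice. si:dkeyp-15f12.4 (ENSDARG00000092315) had 61.0, 52.3 and 42.1 TPM in W-hybrid and 4.05, 8.88 and 8.23 TPM in Z-hybrid germ cells, and was at 0.63 and 0.43 TPM in trunk cells. The gene named lectin (ENSDARG00000055833) rose as well, with 22.3, 27.4 and 16.8 TPM in the W-hybrid, against 5.12, 2.26 and 1.13 TPM in the Z-hybrid.

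A pair of genes named from the same genomic clone, ENSDARG00000105079 and ENSDARG00000101254, rose together. ENSDARG00000105079 had 39.3, 35.2 and 35.6 TPM in W-hybrid libraries, against 3.56, 7.08 and 3.24 TPM in Z-hybrid libraries, and ENSDARG00000101254 had 18.4, 19.6 and 18.7 TPM, against 1.79, 1.81 and 1.05 TPM. Their log2 fold changes were 3.15 ± 0.35 and 3.79 ± 0.37 (SE), with adjusted p of 4.65e-05 and 1.20e-05. The spread among W-hybrid libraries was small beside the gap between the hybrids in each of them. A second pair, ENSDARG00000111442 and ENSDARG00000116570, both had a transcript of 1489 bases and may share reads. ENSDARG00000111442 had 7.03, 14.3 and 7.61 TPM in the W-hybrid, against 1.02, 0.67 and 0.39 TPM in the Z-hybrid. ENSDARG00000116570 had 4.72, 7.88 and 5.99 TPM in the W-hybrid, against 0.60, 0.42 and 1.03 TPM in the Z-hybrid. RPE65, the name of the retinoid isomerase of the visual cycle, was another such gene (4.43, 5.63 and 9.38 TPM in the W-hybrid, against 0.21, 0.78 and 0.83 TPM in the Z-hybrid).

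The largest decreases were larger than the largest increases. Among the calls, 5 genes that fell had no more than 3 counts in any W-hybrid library, against 0 genes that rose and were this low in every Z-hybrid library. The TPM minimum of a call was read in the higher hybrid, so these genes passed it through the Z-hybrid alone. How many of all tested genes were this low in either hybrid was not counted. si:ch211-160d14.9 (ENSDARG00000096599) had 0 counts in each W-hybrid library and 118, 92 and 102 counts in the Z-hybrid libraries (8.77, 5.89 and 6.18 TPM). Against a floor of 3 counts per library the level in W-hybrid germ cells was lower by at least 32.2-fold. si:ch211-160d14.11 (ENSDARG00000096526), from the same clone, had 1, 0 and 1 counts in the W-hybrid and 124, 79 and 102 counts in the Z-hybrid. Its scaled summed count in the Z-hybrid was 141 times that in the W-hybrid, with a 95% exact interval of 38.8 to 1173 that covers counting error only. The third such gene, ENSDARG00000025783, had 1, 1 and 2 counts in the W-hybrid and 71, 56 and 163 in the Z-hybrid, a ratio of 67.2 for Z-hybrid over W-hybrid (26.0 to 248). For si:ch211-262i1.2 (ENSDARG00000100639) that ratio was 40.4 (19.4 to 101), and for si:ch211-14a11.2 (ENSDARG00000093457) it was 37.6 (15.9 to 117).

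MIF4GD (ENSDARG00000102080) was the most abundant gene among these decreases, and its human namesake encodes a partner of the stem-loop binding protein that promotes translation of replication-dependent histone messages. It had 15.8, 13.8 and 11.8 TPM in W-hybrid libraries, against 219, 220.3 and 138 TPM in Z-hybrid libraries. The log2 fold change was −3.58 ± 0.19 (SE, adjusted p = 1.72e-08). si:dkeyp-122d12.1 (ENSDARG00000096684) had 1.97, 1.72 and 0.41 TPM in the W-hybrid, against 39.8, 39.1 and 39.0 TPM in the Z-hybrid. CRYBB1, named for a lens crystallin, had 0.61, 1.07 and 0.72 TPM in the W-hybrid, against 15.1, 16.7 and 24.7 TPM in the Z-hybrid. These genes too were picked among those whose groups did not overlap. nid2b, a nidogen of the basement membrane, averaged 3.07 ± 0.58 TPM in W-hybrid and 22.2 ± 6.6 TPM in Z-hybrid germ cells, and rab5b, a small GTPase of early endosomes, 1.34 ± 0.25 TPM and 12.3 ± 2.2 TPM (SD, n = 3 each). The genes ppp1r14d, a phosphatase inhibitor, and ENSDARG00000113858 fell by 4.97 and 4.61 on the log2 scale. MIF4GD, si:dkeyp-122d12.1, CRYBB1, nid2b, rab5b, ppp1r14d and ENSDARG00000113858 kept their call with each library left out in turn and with the length offset.

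**Figure D2:**
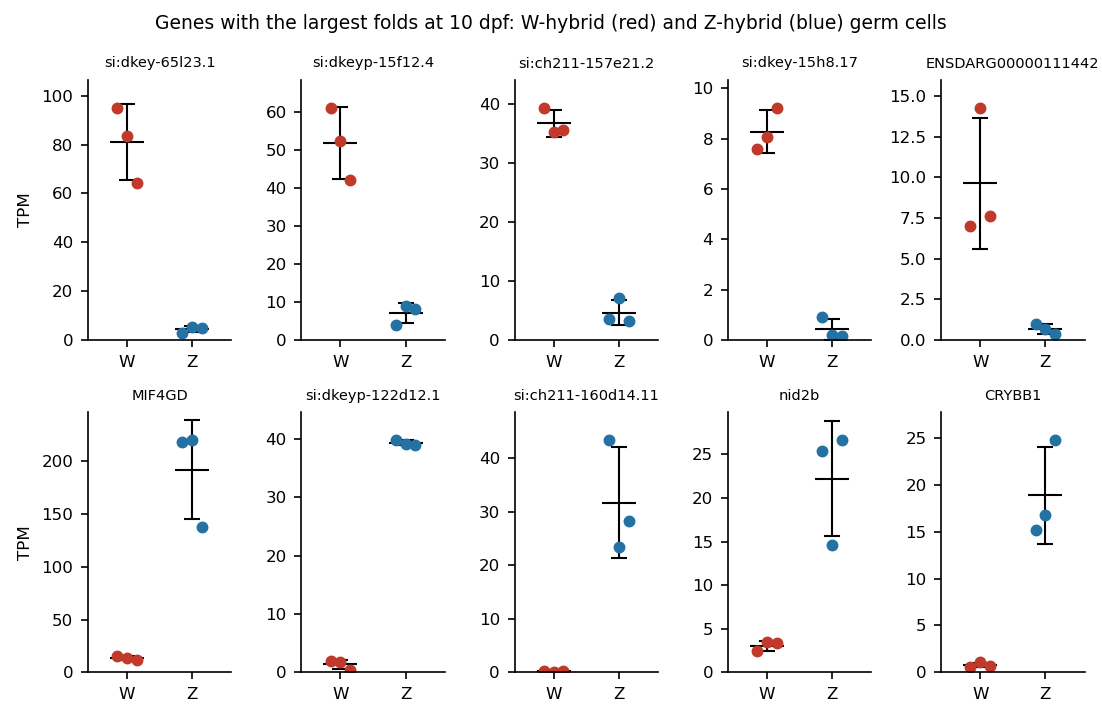
TPM in each library (points), with mean and SD of 3 libraries (bars), for 5 of the genes with the largest increases (top) and 5 of those with the largest decreases (bottom) in W-hybrid (left, red) against Z-hybrid (right, blue) germ cells. Genes were picked among those whose groups did not overlap, so no panel has overlap. si:dkey-65l23.1 spans 64.2 to 95.0 TPM in the W-hybrid, against 2.99 to 5.40 TPM in the Z-hybrid, and MIF4GD 11.8 to 15.8 TPM and 138 to 220.3 TPM.

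Germ cells of the same hybrids at 12 dpf, measured in 8 other libraries of the same method, had the same sign more often for the larger differences than for the small ones. Of the 39 genes that rose at least 4-fold at 10 dpf, 36 were also higher in the W-hybrid at 12 dpf, and 16 of the 17 testable genes that fell at least 4-fold were also lower. Of genes that changed 2- to 4-fold, 85 of 114 that rose were also higher and 146 of 227 that fell were also lower. Among genes that rose 1.5- to 2-fold at 10 dpf, 202 of 462 (43.7%) were higher at 12 dpf, with a median log2 fold change of −0.05. Among genes that fell 1.5- to 2-fold, 309 of 568 (54.4%) were lower at 12 dpf, with a median of −0.03. For all genes tested at both ages the 12 dpf fold change was above 0 in 9624 and below 0 in 9875. Of 20066 genes tested at 12 dpf, 16 rose and 13 fell, and 13 and 8 of these were calls in the same direction at 10 dpf. si:dkeyp-122d12.1 fell at 12 dpf as well (0.85 to 3.40 TPM in 4 W-hybrid and 59.7 to 160 TPM in 4 Z-hybrid libraries, adjusted p = 2.63e-06). So did rab5b (adjusted p = 0.000378) and si:ch211-262i1.2 (adjusted p = 0.000378), and ENSDARG00000105079, ENSDARG00000101254 and si:dkeyp-15f12.4 rose (adjusted p = 7.10e-05 in each). CDK1 had a log2 fold change of 0.07 ± 0.21 (SE, adjusted p = 0.936) at 12 dpf, with 331 to 598 TPM in the W-hybrid, against 318 to 479 TPM in the Z-hybrid.

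Tested directly, as the difference between the hybrids at 10 dpf minus that at 12 dpf, 0 of 21675 genes had an adjusted p under 0.05 in edgeR, 3726 had an unadjusted p under 0.05, and 460 had an adjusted p under 0.05 in DESeq2. The lowest adjusted p in edgeR, 0.079, was that of si:dkey-65l23.1, whose log2 fold change was 4.33 at 10 dpf and 1.23 at 12 dpf. For the replication gene RRM2 the log2 fold change was 1.27 at 10 dpf and −1.09 at 12 dpf (adjusted p = 0.106 for the change).

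**Figure D3:**
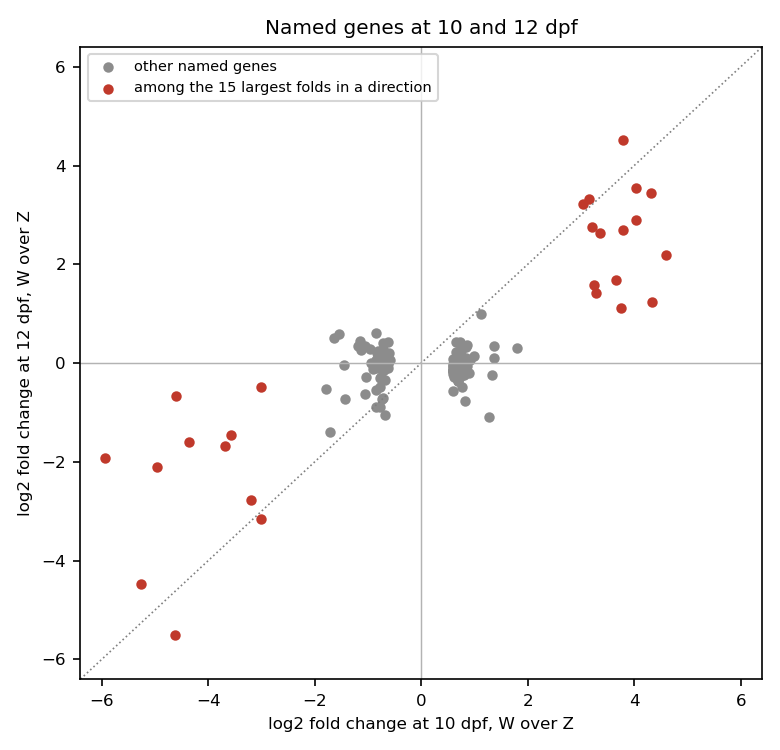
Log2 fold change of W-hybrid over Z-hybrid at 12 dpf (vertical) against that at 10 dpf (horizontal) for the 133 named genes tested at both ages, the dotted line marking equality. All 26 genes plotted from the 15 largest folds in either direction (red) keep their sign, while 50 of the 107 other named genes (grey) do. The 12 dpf median of the grey genes is −0.056 for those higher at 10 dpf and −0.028 for those lower, and single genes lie further from 0.

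Of 40 tested genes of the kinetochore and spindle checkpoint 9 rose in W-hybrid germ cells at 10 dpf, by less than 2-fold, and 1 fell, against 3.06% and 4.07% of all genes, and the median log2 fold change was 0.37, against −0.04 for all genes. spc24, a subunit of the Ndc80 complex that binds microtubules, had 212, 197 and 184 TPM in W-hybrid libraries, against 125, 121 and 131 TPM in Z-hybrid libraries (log2 fold change 0.84 ± 0.14, SE, adjusted p = 0.00186). CENPL, a centromere protein, had 55.5, 47.8 and 50.5 TPM in the W-hybrid, against 34.8, 34.2 and 35.7 TPM in the Z-hybrid. In both genes the groups were apart by several times the spread within them. The others were MAD2L1, which holds the anaphase-promoting complex until chromosomes attach, cdca8 of the chromosomal passenger complex, ska1 and ska3 of the Ska complex, and cenph, SPC25 and cenpw, with log2 fold changes of 0.59 to 0.77. bub1, a checkpoint kinase with a transcript of 3305 bases, fell (6.92 ± 2.7 TPM in W-hybrid and 12.2 ± 5.0 TPM in Z-hybrid, SD, n = 3 each), with overlapping groups. With the length offset 3 of the 40 rose, CENPL, ska3 and cdca8, 0 fell, and the median was 0.27. Over all genes 313 of 20080 rose and 619 fell in that fit. With W-hybrid replicate 1 left out 4 genes of the list rose, with replicate 2 of the W-hybrid left out 6, with replicate 1 or 2 of the Z-hybrid left out 5, and with replicate 3 of either hybrid left out 13, and the fit with all 14 Smart-seq libraries gave 1. cdca8, SPC25 and cenpw, and bub1 on the other side, each lost the call without 4 of the 6 libraries, whereas spc24, CENPL, MAD2L1 and ska1 kept it without any single library.

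The kinase that drives entry into mitosis rose, as did its partner CKS1B, while the calls of B-type cyclins depended on single libraries. CDK1 (ENSDARG00000087554) had 775, 681 and 706 TPM in W-hybrid libraries and 480.2, 315 and 511 TPM in Z-hybrid libraries, a log2 fold change of 0.92 ± 0.16 (SE, adjusted p = 0.00356). CKS1B, a small subunit of cyclin-dependent kinases, had 370.5, 415 and 325 TPM in the W-hybrid, against 231, 199 and 249.8 TPM in the Z-hybrid. The W-hybrid libraries lay above the Z-hybrid libraries in both. CCNB1, the B-type cyclin that binds CDK1, had 347, 317 and 290.0 TPM in the W-hybrid, but 179, 150 and 301 TPM in the Z-hybrid, so that the groups overlapped (adjusted p = 0.0435). Of the list of cyclins and cell cycle regulators 7 of 50 rose and 2 fell, against 3.06% and 4.07% of all genes. The median was 0.02. The others that rose were CKS2, CCNB2, ccnb3 and E2F4, and those that fell were e2f2 and RBL1. With the length offset CDK1 and E2F4 kept their call and the 5 other genes that rose lost it (CKS1B at a log2 fold change of 0.56), and of the 2 that fell RBL1 kept it. Without W-hybrid replicate 1 the list had 2 genes that rose and 0 that fell. Without Z-hybrid replicate 1 or 2 it had 4 and 3 that rose. CDK1 and CKS1B kept their call without any single library. CCNB1 and CCNB2 lost theirs without any single library but Z-hybrid replicate 3, and CKS2 and ccnb3 without replicate 1 or 2 of either hybrid. mki67, a marker of cycling cells, was at 54.9 ± 9.6 TPM in W-hybrid and 65.6 ± 6.9 TPM in Z-hybrid germ cells (adjusted p = 0.734).

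In the spindle and cytokinesis list 3 of 39 genes rose and 2 fell, against 3.06% and 4.07% of all genes. The median was 0.31, and 35 of 39 were above 0. plk1, the polo kinase of mitosis, had 561, 425 and 511 TPM in the W-hybrid, against 315, 254 and 449 TPM in the Z-hybrid, with overlapping groups. NEK2, a centrosomal kinase, and haus2 of the augmin complex rose too, while the long transcripts of kif15, a spindle kinesin, and CKAP5, a microtubule polymerase, fell. With the length offset 7 of these genes rose and 0 fell, and the median was 0.34. Of the 7, 2 were calls of the fit without the offset. Over all genes 313 of 20080 rose and 619 fell with the offset. Of 22 genes of the anaphase-promoting complex and its targets, pttg1 (securin) and UBE2C, the E2 enzyme of the complex, rose. ANAPC1, its largest subunit, fell, and the shares of all genes were 3.06% and 4.07%. UBE2C had 992, 931 and 841 TPM in the W-hybrid, against 757, 594 and 730.2 TPM in the Z-hybrid, and with the offset none of the 22 was called. Of 20 genes of condensin and mitotic cohesin cdca5 (sororin) rose and SMC4 fell, against the same shares. Of the 20, 14 were below 0 (median −0.25, and −0.02 with the offset), and with the offset none was called. Without W-hybrid replicate 1 no gene of the spindle list or of the anaphase-promoting complex list was called, and without Z-hybrid replicate 3 the spindle list had 11 that rose. Every call of these cell cycle lists was between 1.5- and 2-fold.

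In the list of DNA replication genes 7 of 67 rose and 5 fell (3.06% and 4.07% of all genes), with a median of 0.18. The counts were 4 and 1 without W-hybrid replicate 1, 4 and 3 without W-hybrid replicate 2, 4 and 2 without Z-hybrid replicate 1, 9 and 3 without Z-hybrid replicate 2, 7 and 9 without Z-hybrid replicate 3, and 9 and 11 without W-hybrid replicate 3. RRM2, a subunit of ribonucleotide reductase, which makes deoxyribonucleotides, had 114, 69.6 and 80.6 TPM in W-hybrid libraries, against 49.4, 42.2 and 48.2 TPM in Z-hybrid libraries (log2 fold change 1.27 ± 0.16, SE, adjusted p = 0.000188). CDC6, which loads the replicative helicase onto origins, had 106, 111 and 149 TPM in the W-hybrid, against 75.7, 83.3 and 68.8 TPM in the Z-hybrid (log2 fold change 0.87 ± 0.14, SE, adjusted p = 0.00182). These genes stood clear of the Z-hybrid libraries and kept their call with the length offset and without any single library. TYMS and dhfr of thymidylate synthesis, RPA3, FEN1 and GINS1 rose by 0.61 to 0.85 on the log2 scale, and lost the call with the offset. Subunits of the replicative helicase were on the other side. MCM7 had 108, 69.1 and 190.1 TPM in the W-hybrid, against 406, 251 and 284 TPM in the Z-hybrid, and MCM3 120, 96.7 and 207 TPM, against 316, 234 and 210.4 TPM. MCM2, MCM4, MCM5 and both genes with the symbol MCM6 were lower by less than 1.5-fold, with log2 fold changes of −0.56 to −0.44 and adjusted p of 0.0181 to 0.0488. All of these MCM genes but MCM7 had transcripts longer than the median. POLA1 and POLD1, catalytic subunits of DNA polymerases, and TOPBP1 fell as well. With the offset MCM7 kept its call and the other genes that fell did not. PCNA, the sliding clamp, was at 990 ± 11 TPM in W-hybrid and 1065 ± 13 TPM in Z-hybrid germ cells. Its log2 fold change was 0.08 (adjusted p = 0.733 in edgeR). Fold changes were fitted to TMM-scaled counts, whereas TPM are divided by transcript length and carry no such scaling.

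**Figure D4:**
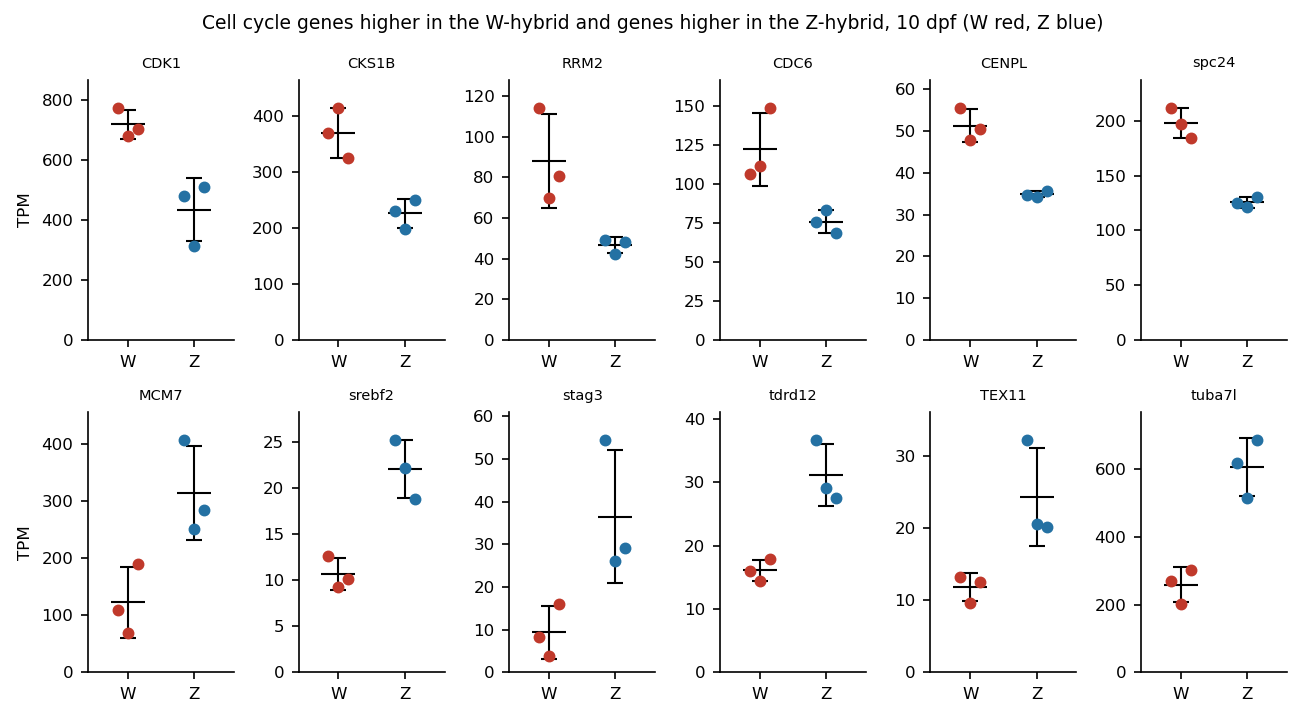
TPM in each library (points), with mean and SD of 3 libraries (bars), for 6 cell cycle and replication genes that rose (top) and 6 genes that fell (bottom) in W-hybrid (left, red) against Z-hybrid (right, blue) germ cells at 10 dpf. No panel has overlapping groups, and called genes whose groups overlapped, such as CCNB1 and plk1, are not shown. CDK1 spans 681 to 775 TPM in the W-hybrid, against 315 to 511 TPM in the Z-hybrid.

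Of 37 genes of meiotic recombination 6 fell and 1 rose, against 4.07% and 3.06% of all genes. The median of the list was −0.03, and all of the 6 had transcripts longer than the median gene. The 6 became 1 without W-hybrid replicate 2 or Z-hybrid replicate 1, 2 without W-hybrid replicate 1 and 4 without Z-hybrid replicate 2, and TEX11 alone of them kept its call without any single library. TEX11, which acts with MCMDC2, HFM1 and MSH4 at forming crossovers in mammals, had 13.3, 9.64 and 12.5 TPM in the W-hybrid, against 32.2, 20.5 and 20.2 TPM in the Z-hybrid (log2 fold change −0.84 ± 0.17, SE, adjusted p = 0.00652). YTHDC2, an RNA helicase needed for meiotic entry in mice, had 1.17, 1.05 and 2.55 TPM in the W-hybrid, against 8.55, 3.45 and 3.86 TPM in the Z-hybrid. These 2 genes and MCMDC2 kept their call with the length offset, while HFM1, MSH4 and MCM9 did not. MEIOB, a single-strand DNA binding partner of recombination, rose (25.1, 18.7 and 16.8 TPM in the W-hybrid, against 11.8, 10.5 and 17.8 TPM in the Z-hybrid), with overlapping groups. Of 15 genes of the synaptonemal complex and the meiotic axis the meiotic cohesin gene stag3, which fell, was the single call, against 4.07% of all genes. This count moved with the setting. With the length offset 1 of the 15 rose and 1 fell, and with no filter other than 1 count 1 rose and 0 fell. Without W-hybrid replicate 3, 2 rose and 1 fell, and without Z-hybrid replicate 3, 2 rose and 2 fell. stag3 had 8.40, 3.82 and 16.1 TPM in the W-hybrid, against 54.4, 26.0 and 29.1 TPM in the Z-hybrid (log2 fold change −1.80 ± 0.39, SE, adjusted p = 0.0174), and lost the call without W-hybrid replicate 1. HORMAD1, a protein of the meiotic axis, was at 525 ± 21 TPM in W-hybrid and 408 ± 51 TPM in Z-hybrid germ cells, a log2 fold change of 0.56 (adjusted p = 0.0176) that is under 1.5-fold. SYCP3, the lateral element of the complex, was at 81.1 ± 6.3 TPM in the W-hybrid, against 78.0 ± 27 TPM in the Z-hybrid (adjusted p = 0.330), and DMC1, the meiotic recombinase, at 50.3 ± 6.6 TPM and 41.1 ± 4.8 TPM (adjusted p = 0.0599).

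Of 28 germ cell and piRNA genes 3 fell and 0 rose (4.07% and 3.06% of all genes), with a median of −0.09. tdrd12, a Tudor protein of the piRNA pathway, had 16.1, 14.5 and 17.9 TPM in W-hybrid libraries, against 36.7, 29.1 and 27.6 TPM in Z-hybrid libraries (log2 fold change −0.83 ± 0.14, SE, adjusted p = 0.00203). TDRD9, a helicase of the same pathway, had 183, 106 and 211 TPM in the W-hybrid, against 388, 265 and 271 TPM in the Z-hybrid, and PIWIL2, also called zili, 213, 134 and 298 TPM and 461, 297 and 339.5 TPM. The PIWIL2 groups overlapped by less than 1 TPM, and tdrd12 alone of the 3 kept its call with the length offset and without any single library. TDRD9 lost its call without W-hybrid replicate 1 or 2 or Z-hybrid replicate 1. PIWIL2 lost it in DESeq2 and without any single library but W-hybrid replicate 3. DDX4 (vasa) was at 988 ± 203 TPM in the W-hybrid, against 1225 ± 145 TPM in the Z-hybrid (adjusted p = 0.573). The germ cell markers summed lowest in W-hybrid replicates 1 and 2 (3811 and 3070 TPM), and the part of this in the 3 decreases was not tested. PIWIL2 and TDRD9 are themselves among the summed markers, so the sum is not separate from their decreases. In these sorted pools, fewer cells with a transcript and less of it per cell cannot be told apart.

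Of 25 early oocyte genes 3 rose and 0 fell (3.06% and 4.07% of all genes), with a median of 0.21. With the length offset the median was 0.01 and 1 rose, and without Z-hybrid replicate 2 also 1 rose. foxl2l, which encodes a forkhead factor of oocyte precursors, had 901, 985 and 1041 TPM in the W-hybrid, against 561, 600.2 and 816 TPM in the Z-hybrid (log2 fold change 0.74 ± 0.17, SE, adjusted p = 0.0111). Its libraries did not overlap, but the call was lost without Z-hybrid replicate 1 or 2, and with the length offset (log2 fold change 0.42, adjusted p = 0.0593). The zona pellucida genes zp3 (8.24, 9.36 and 11.7 TPM in the W-hybrid, against 6.26, 3.23 and 3.56 TPM in the Z-hybrid) and zp3d.2 (39.1 ± 1.15 TPM, against 27.9 ± 4.2 TPM, SD, n = 3 each) rose, and zp3 kept its call with the offset. The oocyte genes figla, bmp15, GDF9, ZAR1, zp3b and buc were not called. zp3b, another zona pellucida gene, was below the Z-hybrid in every W-hybrid library (16.75, 9.25 and 18.42 TPM, against 25.11, 25.2 and 21.08 TPM in the Z-hybrid, adjusted p = 0.131), as was ZAR1 (33.6 ± 2.2 TPM, against 41.4 ± 3.3 TPM in the Z-hybrid). buc, which organizes the Balbiani body, was at 21.8 ± 1.7 TPM in the W-hybrid, against 20.3 ± 4.7 TPM in the Z-hybrid. These 6 genes, the matched markers of early oocytes, summed to 98.2, 86.7 and 101.8 TPM in W-hybrid libraries, against 129, 106 and 112 TPM in Z-hybrid libraries, so that the sum was lower in each W-hybrid library than in any Z-hybrid library. The whole early oocyte list, with foxl2l in it, went the other way. It summed to 1867, 1925 and 2063 TPM in W-hybrid libraries, against 1610, 1565 and 1823 TPM in Z-hybrid libraries, with no overlap. None of 20 spermatogonial and stem cell genes and none of 17 genes of gonadal somatic cells was called, against 7.14% of all genes. At that share lists this short hold few calls or none. With the length offset 1 of the 20 fell and none of the 17 was called. DMRT1, which promotes testis fate, was at 113 ± 26 TPM and 121.7 ± 5.3 TPM (adjusted p = 0.984), and amh was at 0.35 ± 0.21 TPM and 0.21 ± 0.06 TPM in the W-hybrid and the Z-hybrid.

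Of genes of cell death and survival, bbc3 and PHLDA3 fell and bida rose. bbc3, which promotes apoptosis, had 3.47, 3.02 and 4.53 TPM in W-hybrid libraries, against 7.65, 19.2 and 6.82 TPM in Z-hybrid libraries. PHLDA3, an inhibitor of Akt, had 35.3, 41.2 and 29.5 TPM in W-hybrid libraries, against 57.6, 119 and 71.3 TPM in Z-hybrid libraries. The groups did not overlap for either gene, but Z-hybrid replicate 2 was the highest library for both, and both lost the call without it or without any single W-hybrid library. The log2 fold change of bbc3 was -1.45 ± 0.35 (SE, adjusted p = 0.0214 by edgeR's quasi-likelihood test), and -0.78 without Z-hybrid replicate 2 (adjusted p = 0.0593). For PHLDA3 it was -1.04 ± 0.27 (SE, adjusted p = 0.0283 by the same edgeR test), and -0.66 without that library (adjusted p = 0.0742). With the length offset PHLDA3 kept its call and bbc3 did not. bida, a BH3-only relative of bbc3, was at 367 ± 41 TPM in W-hybrid germ cells, against 276 ± 24.5 TPM in Z-hybrid germ cells (SD, n = 3 each), and lost its call with the length offset and without replicate 1 or 2 of either hybrid.

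Of 88 nuclear subunits of the respiratory chain 5 rose and 0 fell (3.06% and 4.07% of all genes), and 82 were above 0 (median 0.37). Without W-hybrid replicate 3, 21 of the 88 rose, without Z-hybrid replicate 3, 9 rose, and without W-hybrid replicate 1 or 2, 3 rose. NDUFA4, NDUFS8 and COX7A2L were 3 of the 5, and the others were atp5mc1, the c subunit of ATP synthase (1061, 1249 and 952 TPM in the W-hybrid, against 777, 780 and 643 TPM in the Z-hybrid), and ndufc1 of complex I (1198 ± 58 TPM, against 884 ± 109 TPM). With the length offset 0 of the 88 were called, 58 were above 0 and the median was 0.05. The direction of the ribosomal protein genes turned with it: 75 of 84 were above 0 without the offset (median 0.11) and 6 of 84 with it (median −0.22), and none was called in either fit. The 13 mitochondrially encoded genes also turned, with medians of 0.10 and −0.22. Both lists turned without the offset as well when 1 library was left out. Without W-hybrid replicate 2, 29 of the 84 ribosomal protein genes were above 0 (median −0.03), and without Z-hybrid replicate 1, 31 were (−0.05). The medians of the mitochondrially encoded genes in these fits were −0.06 and −0.01. Of 44 proteasome genes PSMA5 and PSMD12 rose and PSMD1 and PSMD3 fell, against 3.06% and 4.07% of all genes. All but PSMA5 kept their call with the offset. Without W-hybrid replicate 1 no proteasome gene was called, and without W-hybrid replicate 3, 6 rose. Of 24 sterol synthesis genes NSDHL, MVD and EBP rose and srebf2, the transcription factor that activates them, fell, against 3.06% and 4.07% of all genes. srebf2 had 12.6, 9.27 and 10.2 TPM in the W-hybrid, against 25.1, 22.1 and 18.8 TPM in the Z-hybrid. Of these genes only srebf2 kept its call with the offset. NSDHL and srebf2 kept their call without any single library.

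**Figure D5:**
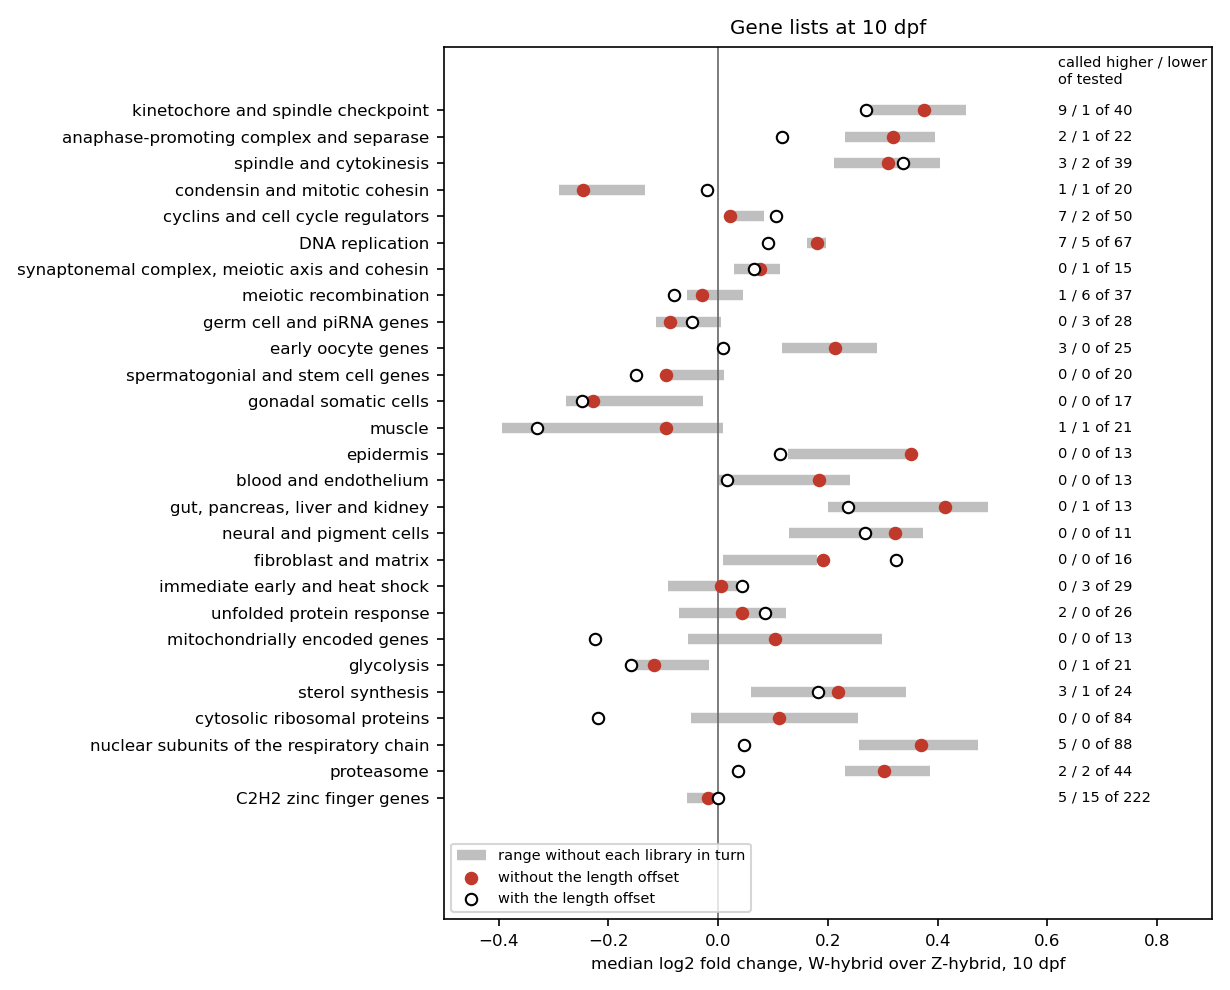
Median log2 fold change of W-hybrid over Z-hybrid germ cells at 10 dpf for the gene lists (red, without the length offset, and open, with it) and its range when each library is left out in turn (grey bar), with the genes called higher, lower and tested printed at the right. The kinetochore list is at 0.37 and 0.27 in the 2 fits, and the ribosomal protein list at 0.11 and −0.22.

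Of 29 immediate early and heat shock genes the transcription factor genes FOS, JUN and egr2a fell in the W-hybrid and 0 rose (4.07% and 3.06% of all genes), with a median of 0.01. Without W-hybrid replicate 1 or 2 or Z-hybrid replicate 2 none of the 29 fell. FOS was at 20.6, 22.4 and 24.9 TPM in the W-hybrid, against 36.5, 61.8 and 31.1 TPM in the Z-hybrid, and at 1123 and 1036 TPM in trunk cells. Of 26 genes of the unfolded protein response ASNS and SDF2L1 rose and 0 fell, against 3.06% and 4.07% of all genes. Of 21 glycolytic genes PFKM fell and 0 rose, against the same shares. These 3 genes lost their call without W-hybrid replicate 1 or 2. In the lists of other cell types tpma rose and NEB fell among 21 muscle genes, and amy2a (pancreatic amylase) fell among 13 gut, pancreas, liver and kidney genes. None was called among 13 epidermal, 13 blood and endothelial, 11 neural and pigment cell and 16 fibroblast genes. Of all genes 7.14% were called, and at that share lists this short hold few calls or none. tpma, a tropomyosin gene of muscle, was at 22.2 ± 6.65 TPM in W-hybrid and 10.7 ± 5.8 TPM in Z-hybrid germ cells, and 6 matched muscle markers, tpma among them, summed to 87.07, 100.99 and 94.68 TPM in W-hybrid libraries, against 80.77, 62.64 and 50.03 TPM in Z-hybrid libraries. The whole list of 21 muscle genes summed to 195, 236 and 245 TPM in W-hybrid libraries, against 274, 233 and 231 TPM in Z-hybrid libraries, with overlapping groups. In TPM, 10 of its genes lay wholly below the Z-hybrid and 2 wholly above it, against 22.6% and 9.28% of all genes. amy2a was at 1.65 ± 0.60 TPM in the W-hybrid, against 6.47 ± 3.7 TPM in the Z-hybrid, and lost its call without replicate 1 or 2 of either hybrid. The 4 matched gut and pancreas markers summed to 19.77, 18.84 and 20.13 TPM in W-hybrid libraries, against 22.54, 25.68 and 26.78 TPM in Z-hybrid libraries, with no overlap. The whole gut, pancreas, liver and kidney list went otherwise. It summed to 64.81, 66.39 and 72.25 TPM in W-hybrid libraries, against 62.54, 75.06 and 67.51 TPM in Z-hybrid libraries, with overlapping groups. Of its 13 tested genes 9 were above 0, with a median log2 fold change of 0.41.

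The 10 most abundant genes that rose included chaperones and chromatin proteins beside those above. npm1a (nucleophosmin, a histone chaperone of the nucleolus) had 2655, 2683 and 2474 TPM in W-hybrid libraries, against 2286, 1867 and 1772 TPM in Z-hybrid libraries, and HSPE1, the mitochondrial co-chaperonin, 2743, 2614 and 2418 TPM, against 1993, 1686 and 1645 TPM. si:ch211-226l4.6 (ENSDARG00000105573) had 1681, 1776 and 1395 TPM in the W-hybrid, against 1006, 941 and 1109 TPM in the Z-hybrid, and 0 and 0.93 TPM in trunk cells. The histone variant gene h3f3a, SNRPF of the spliceosome, and NDUFA4 and ndufab1b of mitochondria were the others, with log2 fold changes of 0.61 to 0.71. All 10 had transcripts shorter than the median of tested genes, and none kept its call with the length offset. Among the most abundant genes that fell, tuba7l, an alpha tubulin at 1.02 and 1.23 TPM in trunk cells, had 271, 202 and 303 TPM in the W-hybrid, against 618, 515 and 685 TPM in the Z-hybrid (log2 fold change −1.06 ± 0.15, SE, adjusted p = 0.000524). TKTL2, a transketolase-like enzyme, had 177, 145 and 247 TPM, against 488, 351 and 326 TPM, and pabpc1a, a poly(A) binding protein, 191, 175 and 316 TPM, against 506, 407 and 370 TPM. STT3A, a subunit of oligosaccharyltransferase, and PNRC2, a cofactor of mRNA decay, fell by 0.74 and 0.84 on the log2 scale. These 5 genes kept their call with the length offset. tuba7l, TKTL2 and PNRC2 also kept it without any single library. pabpc1a lost it without replicate 1 or 2 of either hybrid, and STT3A without W-hybrid replicate 1 or 2 or Z-hybrid replicate 1.

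Neighbouring genes were called together in a few places. Of 496 genes that rose and could be placed in the RefSeq gene order of a later assembly, 27 (5.44%) had a neighbour that also rose, against 6.28% of all placed genes with such a neighbour, and of 661 genes that fell 78 (11.8%) had a neighbour that fell, against 8.40%. The longest run was 6 neighbours that rose, znf1174, si:dkey-15h8.17, znf1156, si:dkey-15h8.13, znf1167 and si:dkey-15h8.15, of which the znf genes carry zinc finger symbols and may share reads with near copies. znf1156 had 37.8, 45.5 and 33.1 TPM in the W-hybrid, against 13.8, 9.79 and 14.9 TPM in the Z-hybrid, and si:dkey-15h8.17 had 7.57, 8.05 and 9.22 TPM, against 0.91, 0.21 and 0.18 TPM. Both kept their call with the length offset, and si:dkey-15h8.15 did too (38.6 ± 3.6 TPM, against 17.7 ± 6.4 TPM, SD, n = 3 each). The first gene of the run, znf1174, lost its call with the offset and without any single library but W-hybrid replicate 3. Over all zinc finger genes with znf or zbtb symbols 5 of 222 rose and 15 fell, against 3.06% and 4.07% of all genes. The median was −0.02, and without W-hybrid replicate 1 the counts were 2 and 2. A run of 3 that rose held the cystatin genes cst14a.1 and cst14a.2 with MIX23, and runs of 3 that fell were pycr1b, cp110 and TRAPPC10, and si:ch73-389k6.1, a gene of the zgc series and mhc2d4b, an MHC class II gene. These runs did not hold either. The calls of cst14a.2, MIX23 and TRAPPC10 were lost with the offset and without replicate 1 or 2 of either hybrid. That of the zgc gene was lost without any single library but W-hybrid replicate 3. A pair of paralogs of the same locus moved in opposite directions. ms4a17a.8 rose (7.64, 5.99 and 6.62 TPM in the W-hybrid, against 0.36, 0.08 and 0.67 TPM in the Z-hybrid), and ms4a17a.9 fell (14.2 ± 4.2 TPM in the Z-hybrid and lower in each W-hybrid library, adjusted p = 0.00155). ms4a17a.8 was at 118 and 136 TPM in trunk cells. Reads that fit either paralog were shared out by the counting program, so the levels of each are uncertain.

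The calls depended on single libraries. Without W-hybrid replicate 1 or 2, 260 and 312 genes rose and 217 and 265 fell, and without Z-hybrid replicate 1 or 2, 407 and 348 rose and 286 and 497 fell. Without W-hybrid replicate 3, 1059 rose and 1355 fell. Of the 615 genes that rose 189 were called with each library left out in turn, and 121 of these also with library size, RLE and the length offset. For genes that fell the numbers were 162 and 152 of 818. CDK1, RRM2, CDC6, CENPL, zp3 and znf1156 were among the 121, and tdrd12, TEX11, srebf2 and ZBTB11 among the 152. Called also in DESeq2 and in the fit with all 14 Smart-seq germ cell libraries were 82 and 49. CDK1, tdrd12, TEX11, srebf2 and ZBTB11 lost their call in the 14-library fit.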

How the data were processed

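Gonads of staged larvae were pooled, and GFP-positive germ cells were sorted for Smart-seq libraries. The submitters' processing notes name STAR 2.7.7a and RSEM 1.3.1 with GRCz11. The authors deposited RSEM expected counts (unscaled, with reads that fit several genes shared between them), TPM (scaled to transcript length and to a fixed total per library) and the mean transcript length per gene, in 1 file per library. A table of counts over the whole series was not used here. Expected counts, of 16134275 to 18321692 per library, were tested with edgeR 4.0.16 (quasi-likelihood test, TMM scaling, default filter on low counts, Benjamini-Hochberg adjustment) in R 4.3.3 on the 6 libraries, or on 14 libraries for the change from 10 to 12 dpf. Nothing in the labels says more than that replicates are separate samples, so p-values measure the spread between these pools. No library was a copy of another. The scripts were tested on simulated data. Gene symbols came from a name table that gave one for 90.4% of 32057 genes, some in human capitals. Named genes were the 15 largest folds and 10 highest levels in each direction among genes whose groups did not overlap, the gene of the study, called members of the cell cycle, meiosis, germ cell and gonadal lists, up to 4 called members of each other list, and up to 4 genes of each run of neighbours. Genes given as not called, bida, ms4a17a.9, znf1167, si:dkey-15h8.13, ZBTB11 and those under other observations were named after their values were seen. The members and lists were chosen with earlier results of these data known. Other settings were other scalings, filters, DESeq2 1.42.0, a replicate block, leaving out each library, and, added after seeing the data, an offset for transcript length (lowess with a span of 0.3 of each library's deviation on log length). Quartz-seq libraries of 12 and 14 dpf were not used here. A gene list and its results are not reported here.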

Additional observations from a re-analysis of the deposited data

How the results depend on the processing

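The main results were 615 genes that rose and 818 that fell. Library size alone gave 332 that rose, a 2-fold minimum gave 153 that rose and 250 that fell, and a fit with all 14 Smart-seq germ cell libraries gave 125 and 58. The offset for transcript length, chosen after seeing the data, gave 313 that rose. Leaving out each of the 6 libraries gave 260 to 1059 genes that rose and 217 to 1355 that fell. No called gene changed its sign under any setting. The change from 10 to 12 dpf, with 0 genes in edgeR, gave 460 genes in DESeq2 and 0 to 361 when each of 14 libraries was left out, the 361 without Z-hybrid 12 dpf replicate 1. In the fit with a replicate block, 602 genes rose and 884 fell, 572 and 778 of them shared with the fit without it, and the change from 10 to 12 dpf had 2 genes. The shared replicate numbers showed no sign of pairing. The correlations of same-numbered deviations were −0.013, 0.092 and −0.106, within the −0.132 to 0.136 of the other pairs. A shared batch was not tested otherwise. Pools of larvae, 3 per hybrid, set the precision, and depth was alike in all libraries.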

Other observations

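Outside the lists, other genes with calls that held with each library left out in turn and under library size, RLE and the length offset included genes of known function, and those below were picked after their values were seen. IFIH1, IRAK4, il15, il17ra1a, JAK2 and jak2a fell and MYD88 rose. These genes have roles in immune signalling, but immune genes were not a list here, and no count over them was made. IFIH1, a sensor of double-stranded RNA, averaged 6.29 ± 2.9 TPM in W-hybrid and 16.7 ± 3.1 TPM in Z-hybrid germ cells (log2 fold change −1.25 ± 0.22, SE). IRAK4, a kinase of Toll-like receptor signalling, averaged 6.96 ± 1.8 TPM in W-hybrid cells and 18.7 ± 3.5 TPM in the Z-hybrid. il15, a cytokine gene, averaged 18.8 ± 1.0 TPM in W-hybrid cells and 40.3 ± 7.6 TPM in the Z-hybrid. MYD88, the adaptor upstream of IRAK4, was higher in the W-hybrid, at 28.3 ± 2.6 TPM, against 16.2 ± 1.4 TPM in the Z-hybrid (SD, n = 3 each). The log2 fold changes were −1.95 for il17ra1a, an interleukin receptor gene, and −0.87 and −0.99 for JAK2 and jak2a, kinases of cytokine receptors. The log2 fold changes at 12 dpf were −0.05 for IFIH1, −0.40 for IRAK4, −0.36 for il15 and −0.23 for MYD88.

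PFAS and GART, enzymes of purine synthesis, were lower in the W-hybrid, at 10.9 ± 3.5 and 7.45 ± 4.3 TPM, against 23.5 ± 5.8 and 20.9 ± 3.2 TPM in the Z-hybrid. foxo3b, a forkhead factor, was at 5.25 ± 1.4 TPM in W-hybrid cells and 16.5 ± 4.0 TPM in the Z-hybrid (log2 fold change −1.48 ± 0.20, SE, adjusted p = 0.000447 in edgeR). CHEK1, a kinase of the DNA replication checkpoint, was higher, at 156 ± 19 TPM in W-hybrid cells and 107 ± 2.4 TPM in the Z-hybrid (log2 fold change 0.73 ± 0.14, SE, adjusted p = 0.00471 in edgeR).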
